A study of Arabidopsis thaliana with 8 samples.

Results

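The dawn clock genes *CCA1* and *LHY*, which took part in choosing the sets, were high in both sets of libraries compared here. They were higher still in the later-lettered set. By the count rule given below, 8 of 16 morning clock genes were higher there, *CCA1* and *LHY* among them, against 1.58% of all genes tested. The comparison sets libraries S2 (Col-0) and U2 (*TT2* OE), called round 3, against P2 (Col-0), Q2 (*MYB5* OE) and R2 (*TT2* OE), called round 2, which are 5 of the 8 libraries of the series. The remaining libraries M2, N2 and O2 form round 1. GEO's labels name no round. The rounds were selected on measured values, since clustering of these same counts had put the libraries into sets that cross the genotypes, so every difference between rounds is given as a description and carries no p-value.

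All libraries were made from whole *Arabidopsis thaliana* seedlings of age 6 days, grown in vitro without treatment on MS agar at 22 °C with 8 h of light per day. Col-0 is the wild type, and *TT2* OE and *MYB5* OE express the MYB transcription factors TT2 and MYB5 constitutively from the CaMV 35S promoter in Col-0. Which transgenic line was sequenced, how many seedlings made up a sample and at what hour they were collected is not given in the sources used here. Within the sets compared, S2 and P2 form a Col-0 pair, U2 and R2 form a *TT2* OE pair, and Q2 has no partner in round 3. Total counts ran from 35496351 to 48428855 per library, and no 2 of the 8 libraries were alike within sampling noise. *TT2* was at 468 CPM in R2 and 509 CPM in U2 and at most 0.191 CPM in P2, Q2 and S2, and *MYB5* was at 254 CPM in Q2 and at most 0.148 CPM elsewhere in the 5 libraries, so each library carried the transgene of its label. CPM is a gene's count scaled to library size with TMM factors, so that 1 gene can be compared between libraries.

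As background, the plant circadian clock is built from transcription factors that repress one another in turn through the day. *CCA1* and *LHY* encode MYB-like repressors that peak around dawn, the related REVEILLE proteins and their LNK partners act in the morning as well, and the PRR proteins follow one another from morning to evening, when GI, TOC1 and the evening complex of ELF3, ELF4 and LUX take over. These factors time many outputs, among them cold response, cell wall growth and starch turnover, while light acts on some of the same genes through photoreceptors and the bZIP factor HY5.

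Of 28496 genes, 20382 passed edgeR's filter on low counts. A gene was counted as higher or lower when both pairs of the same genotype, S2 to P2 and U2 to R2, differed by at least 2-fold in that direction on log2 CPM with a prior count of 2, and both round 3 libraries lay beyond all 3 round 2 libraries. By this count rule 323 genes (1.58%) were higher and 731 genes (3.59%) were lower in round 3. These shares are the background for every list below. At 4-fold the counts were 31 higher and 114 lower. The pairs share no library, and their log2 ratios had a Pearson r of 0.692 and a Spearman rho of 0.677 across the 20382 genes, a description only, since genes are not independent replicates and both pairs span the same rounds. Both pairs were above 0 for 7958 genes and below 0 for 7581, and they went opposite ways for 4835.

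The counts depend on having both pairs. With the Col-0 pair broken, the *TT2* OE pair alone gave 905 higher and 1365 lower genes without P2, and 864 and 1338 without S2. With the *TT2* OE pair broken, the Col-0 pair alone gave 593 and 1136 without R2, and 559 and 1112 without U2. Leaving out Q2 gave 325 and 738. At the edge of the rule with a mean of at least 5 CPM, *AT2G31090* and *AT3G61160* were just inside, with a smaller pair ratio of 1.001 on the log2 scale, and *IGMT3* and *CYP96A12* were just outside at 0.999 and 0.997.

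**Figure D1:**
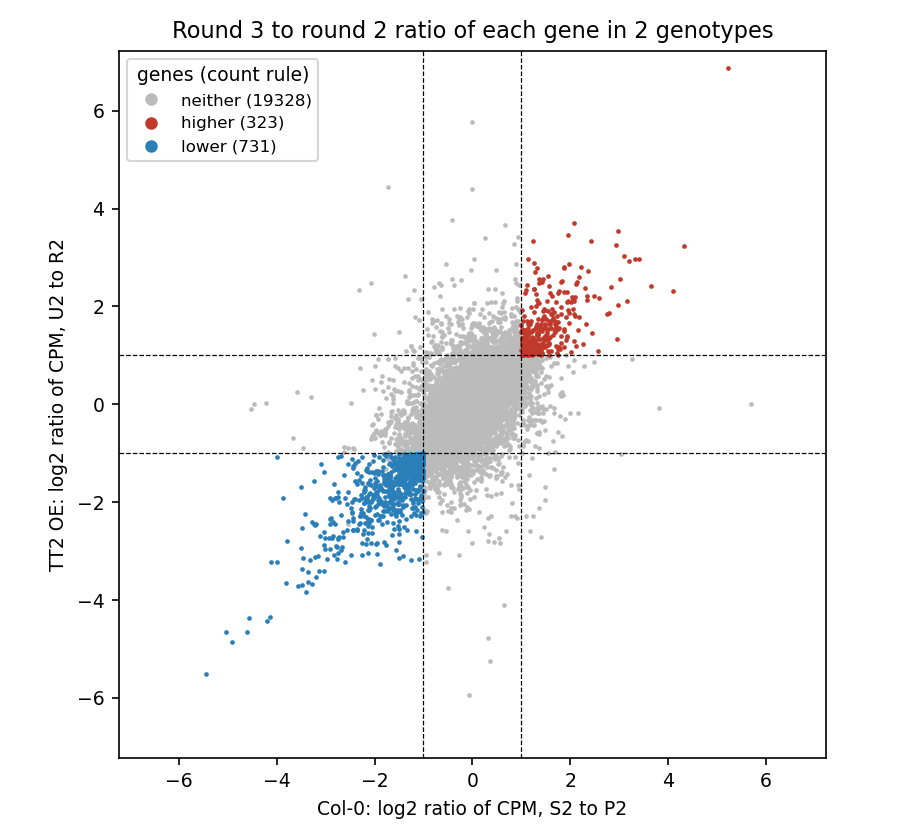
Each point is 1 of 20382 genes. The horizontal axis is the log2 ratio of CPM of S2 to P2 in Col-0, the vertical axis that of U2 to R2 in TT2 OE, dashed lines mark 2-fold, and colours give the 323 genes counted as higher and the 731 counted as lower. Most points lie along the rising diagonal, and the lower left arm is the longer one among the counted genes.

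Fitted ratios below are log2 ratios of round 3 to round 2 with genotype as a term, with the standard error (SE) of the edgeR fit over the 5 libraries. Since Q2 has no partner, the fit leaves 1 residual degree of freedom, which is the difference between the pairs, and SEs borrow from the spread of all genes. The median fitted ratio over all genes tested was 0.01.

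Both genes that gave the rounds their morning-like character were higher in round 3. *CCA1* was at 216 CPM in P2, 235 CPM in Q2 and 239 CPM in R2, against 694 CPM in S2 and 678 CPM in U2. In round 1 it was at 3.91 to 5.77 CPM. *LHY* was at 309, 332 and 337 CPM in the round 2 libraries and at 1057 and 984 CPM in S2 and U2, while round 1 held 1.03 to 1.66 CPM. For both genes the sets lie apart with wide gaps, and genotypes within a set are close to each other. The fitted ratios were 1.59 (SE 0.119) for *CCA1* and 1.66 (SE 0.121) for *LHY*. These genes took part in choosing the sets, so these values describe that choice.

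Among the 16 morning clock genes, 8 were higher, none was lower, and 8 did not meet the count rule. The list had a median fitted ratio of 1.26. Both the count and the median include *CCA1* and *LHY*, which took part in choosing the sets. *RVE2*, a REVEILLE gene also known as CIRCADIAN 1, had the largest ratio of the list. It was at 2.37, 2.8 and 3.47 CPM in P2, Q2 and R2 and at 25.7 and 27.4 CPM in S2 and U2, while round 1 held 10.4 to 10.8 CPM. Unlike *CCA1* and *LHY*, it was lower in round 2 than in either other set, and its fitted ratio was 3.21 (SE 0.169). *ASG4*, also called RVE3, stood at 9.23, 12.4 and 9.34 CPM in round 2 and at 30.0 and 28.2 CPM in round 3. The clock activator *RVE8* stood at 50.3, 51.2 and 53.9 CPM against 154 and 159 CPM. Its round 3 libraries were nearly equal, as were its round 2 libraries. The other morning members that met the rule were *RVE1*, *LNK3* and *PRR9*, named after their values had been seen. *PRR7* was the only member with both pairs below 0, at -0.43 in Col-0 and -0.73 in *TT2* OE.

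The 13 evening clock genes were spread around 0, with a median of 0.14, 2 of them higher, 1 lower and 10 neither. *BOA*, a close relative of *LUX*, was at 0.291, 0.162 and 0.847 CPM in P2, Q2 and R2 and at 2.95 and 3.85 CPM in S2 and U2. *JMJD5*, which encodes a demethylase-type clock protein, was at 2.89, 2.59 and 2.88 CPM in round 2 and at 12.2 and 13 CPM in round 3, a fitted ratio of 2.12 (SE 0.184). These libraries fall into tight groups that do not overlap. *ELF3* stood at 17.2 to 21.7 CPM against 35.4 and 36.8 CPM, and *LUX* at 3.66 to 4.21 CPM against 6.48 and 9.75 CPM. Neither met the rule, with pair ratios of 0.99 and 0.76 for *ELF3* and of 0.77 and 1.2 for *LUX*. *GI* went the other way, from 64.5, 54.9 and 67.3 CPM to 33.9 and 32.1 CPM, and also missed it, with pair ratios of -0.93 and -1.07. *ELF4*, the 1 member counted as lower and named for that reason, was at 1.27 CPM or less in all 5 libraries. *TOC1* had 18.7 to 21.6 CPM in round 2 and 21 and 23.9 CPM in round 3, close together beside its 205 to 252 CPM in round 1.

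**Figure D2:**
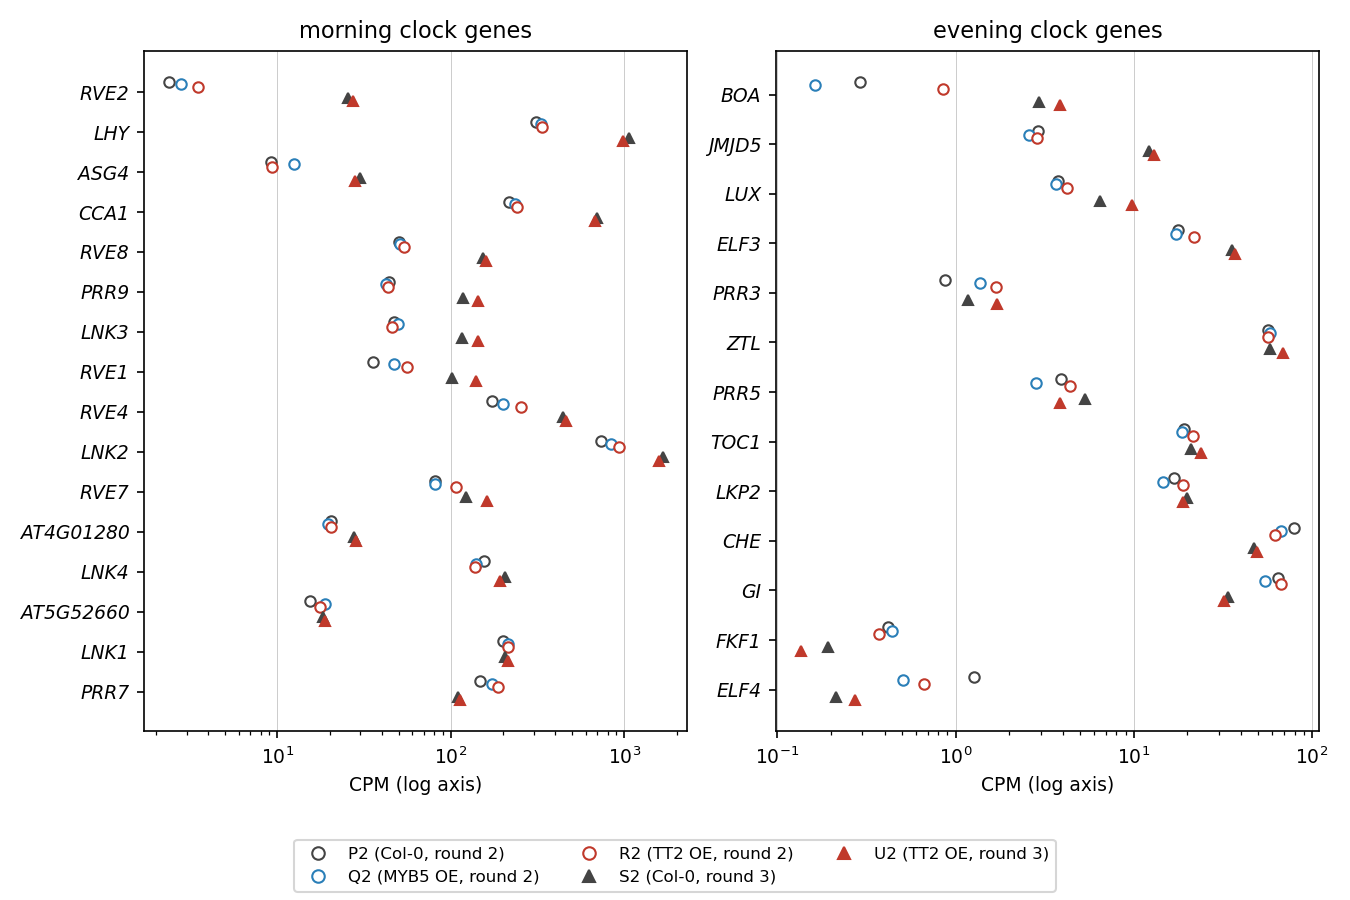
CPM on a log axis of 16 morning and 13 evening clock genes, sorted by fitted ratio, 1 symbol per library. Open circles are round 2 and filled triangles round 3, with colour for genotype. Triangles lie right of the circles for most morning genes down to LNK4, whereas evening genes split, with BOA and JMJD5 to the right and GI, FKF1 and ELF4 to the left.

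Of 13 clock output genes, 5 were higher and none was lower, with a median of 0.97. *COR27*, a night-time regulator of cold and light response, was at 1.72, 1.99 and 5.16 CPM in round 2 and at 8.83 and 16.2 CPM in round 3. *TT2* OE was the highest genotype in both sets. *BBX18* was at 17.5 to 22.6 CPM against 50.9 and 58.5 CPM. *BBX2*, also called COL1, stood at 72.0, 94.7 and 85.7 CPM against 201 and 194 CPM, and the flowering repressor *CDF2* at 14.3, 17.7 and 19.9 CPM against 35.7 and 43.0 CPM. *CO*, the remaining higher member and named for that reason, rests on few counts. They were 6, 9 and 3 in P2, Q2 and R2 against 15 and 22 in S2 and U2. *BBX3* (COL2) reached 327 and 294 CPM from 139.9 to 191 CPM and missed the rule in the *TT2* OE pair, at 0.88. *GRP7*, an RNA-binding protein of the clock's evening arm, was between 45.8 and 93.6 CPM in all 5 libraries, against 1392 CPM in M2 of round 1.

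The 10 genes with the largest positive ratio, among those that met the rule with a mean of at least 5 CPM, held 3 B-box genes. *FLS2*, the receptor kinase for bacterial flagellin, came first. It was at 1.18, 1.92 and 2.51 CPM in P2, Q2 and R2 and at 24.6 and 24.2 CPM in S2 and U2, a fitted ratio of 3.78 (SE 0.218), with 13.2 to 15.3 CPM in round 1. Its round 3 libraries were nearly equal. *BBX30* was at 1.68, 1.51 and 1.53 CPM against 13.6 and 18.4 CPM, and *BBX31* at 2.72, 2.04 and 1.85 CPM against 14.8 and 19.2 CPM. Both encode small proteins with a B-box zinc finger, and in round 1 they were at most 0.0263 and 0.421 CPM. *BBX32*, which encodes a repressor of light responses in seedlings, stood at 5.34, 6.62 and 6.69 CPM against 49.3 and 51.0 CPM, with a ratio of 3.07 (SE 0.138).

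*AT5G15950*, annotated as an adenosylmethionine decarboxylase, an enzyme of polyamine synthesis, was at 73.0, 81.0 and 62.1 CPM in P2, Q2 and R2 and at 625 and 506 CPM in S2 and U2. Its level in round 1 was 10.9 to 11.5 CPM. *EXPA16*, an expansin that loosens cell walls, was at 1.87, 2.29 and 1.19 CPM against 14.6 and 11.8 CPM. The RING/U-box gene *AT3G20395* differed more in Col-0 than in *TT2* OE, with pair ratios of 4.09 and 2.31. *AT2G30766*, annotated as an uncharacterized protein, had pair ratios of 3.64 and 2.42, and *AT1G26790*, a Dof-type zinc finger gene, had 3.02 and 2.56.

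Negative ratios reached further. *XTH22*, the touch-induced xyloglucan endotransglucosylase gene also known as TCH4, was at 563, 759 and 682 CPM in P2, Q2 and R2 and at 12.8 and 14.8 CPM in S2 and U2. Its fitted ratio of -5.49 (SE 0.123) corresponds to a 44.9-fold lower level, and round 1 lay between at 49.6 to 91.7 CPM. *PHI-1*, of the phosphate-responsive 1 family, was at 163, 185 and 198 CPM against 4.9 and 7.77 CPM. *EXLA1*, an expansin-like gene, was at 155, 238 and 214 CPM against 8.42 and 9.94 CPM. In all 3 genes P2 was the lowest library of round 2. *ACS8*, an ACC synthase of the ethylene pathway, stood at 10.7, 14.2 and 10.9 CPM against 0.406 and 0.488 CPM. *AGP18* codes for an arabinogalactan protein of the cell surface. It was 12.5-fold lower by the fit, with 211, 314 and 310.1 CPM in round 2, 17.7 CPM in S2 and a *TT2* OE pair ratio of -3.71.

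Metabolic enzymes made up another share of these genes. *MS2*, a methionine synthase, was at 1209, 1094 and 869 CPM in P2, Q2 and R2 and at 49.6 and 34.5 CPM in S2 and U2, and *SAHH2*, an adenosylhomocysteine hydrolase that acts in the same cycle, was at 566, 536 and 470.0 CPM against 40.3 and 37.4 CPM. *TT2* OE was the lower genotype in both sets for both genes. *FBA5*, a fructose-bisphosphate aldolase, was at 422, 425 and 389 CPM against 23.9 and 19.1 CPM. It differed from the others in round 1, where it was at 652 to 728 CPM, above both later sets. *LTL1*, a lipase gene, and *OFP16*, of the ovate family, were 12.3-fold and 12.1-fold lower. Reads from close paralogs, such as the methionine synthases, may be shared between them, and how the authors' counting assigned such reads is not given in the sources used here.

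**Figure D3:**
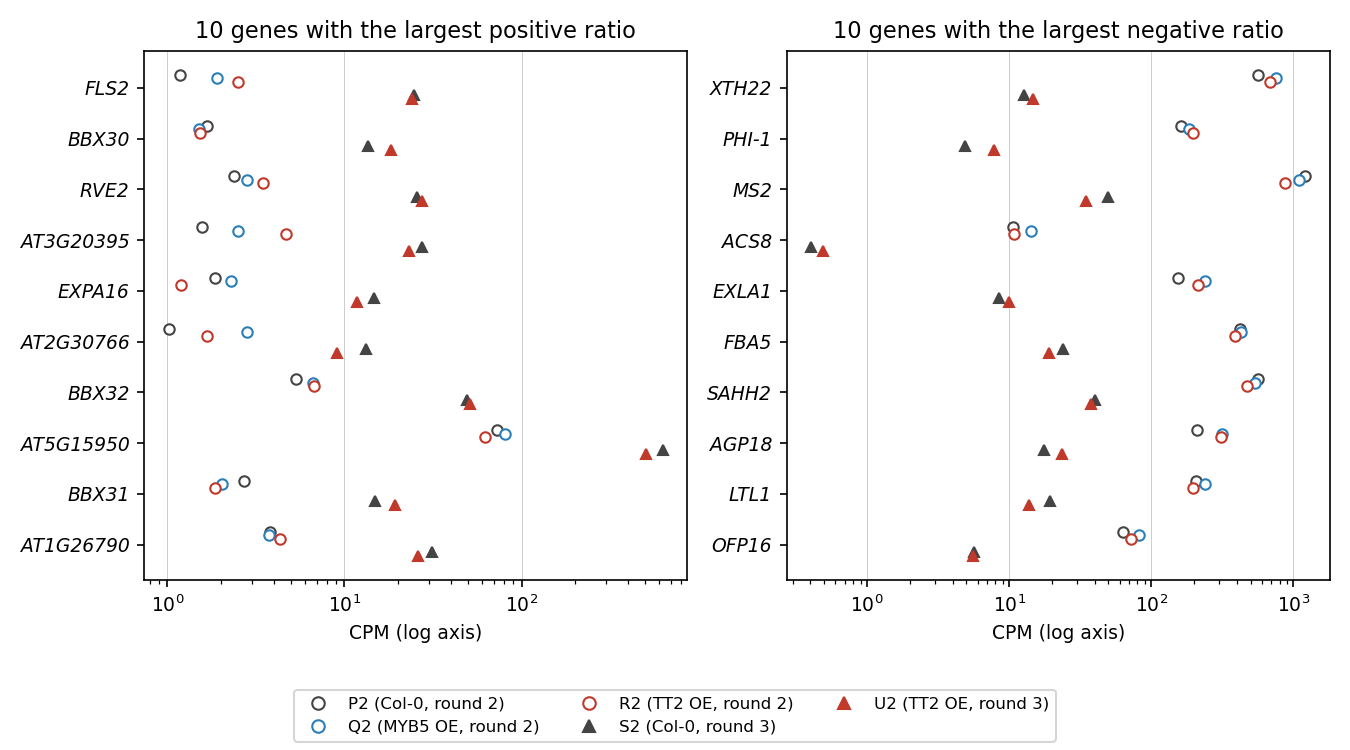
CPM on a log axis of the 10 genes with the largest positive and the 10 with the largest negative fitted ratio, 1 symbol per library. Open circles are round 2 and filled triangles round 3, with colour for genotype. Circles and triangles do not overlap for any of the 20 genes, which the count rule requires, and the gap is widest for XTH22.

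Families of these leading genes were then described whole, a choice made after the values had been seen. Their counts include the leading genes that prompted the choice, so they give no separate support. Of 30 B-box genes, 27 were tested, 11 were higher and 2 were lower, with a median of 0.97. The higher ones include *BBX30*, *BBX31* and *BBX32*, and also *BBX2* and *BBX18*, already counted as clock output genes. Over all genes 1.58% were higher and 3.59% were lower. *BBX29* went from 5.34, 5.12 and 4.74 CPM to 27.7 and 31.7 CPM, and *BBX8* from 1.5, 1.64 and 2.01 CPM to 5.39 and 5.36 CPM. The 2 lower members were *BBX14* and *BBX15*, at -1.23 and -1.20. *BBX24* stayed between 519 and 640.2 CPM and *BBX22* between 29.2 and 38.6 CPM, so the family did not move as one. Of 33 xyloglucan endotransglucosylase genes, which remodel the cell wall, 29 were tested, 8 were lower and none was higher, with a median of -0.68. *XTH23* stood at 42.9, 79.2 and 84.2 CPM against 4.66 and 7.26 CPM, *XTH33* at 9.97, 12.2 and 11.5 CPM against 1.18 and 1.52 CPM, and *XTH16* at 219, 262 and 220.4 CPM against 58.1 and 55.0 CPM. *XTH15* had the opposite sign in both pairs, at 0.85 and 1.2.

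Families linked to cytokinin were also chosen after the values had been seen, though none of the leading genes above belongs to them. Type-A response regulators are induced by cytokinin and dampen its signal. Of 10 genes 9 were tested, 5 were higher and none was lower, with a median of 1.45. *ARR7* was at 5.09, 6.09 and 5.56 CPM in round 2 and at 23.7 and 39.2 CPM in round 3. *ARR5* was at 8.79, 7.71 and 7.46 CPM against 22.0 and 22.8 CPM, and *ARR6* at 14.2, 21 and 13.8 CPM against 37.4 and 39.2 CPM. *ARR3* was on the other side, at -0.90, and did not meet the rule. Of 12 cytokinin response factor genes 11 were tested and 4 were higher, none lower. *CRF2* stood at 21.6, 25.4 and 21.3 CPM against 83.5 and 80.8 CPM, and *CRF5* at 5.78, 5.95 and 6.38 CPM against 23.8 and 29.6 CPM. Among 11 genes of the methionine cycle, 6 were lower and none was higher, with a median of -1.14. Beside *MS2* and *SAHH2* these included *MTO3*, an adenosylmethionine synthase, at 1005, 991 and 962 CPM against 357 and 367 CPM. *HOG1*, the paralog of *SAHH2*, was at 1197 to 1335 CPM with a ratio of 0.06.

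Light-related genes moved both ways. Of 17 genes of the light and UV-B response, 5 were higher and 3 were lower, with a median of 0.09. *HY5*, the bZIP factor that promotes light responses, was at 12, 13.4 and 16.8 CPM in P2, Q2 and R2 and at 39.7 and 58.6 CPM in S2 and U2. *UVR3*, a photolyase that repairs DNA, was at 6.71, 7.18 and 13.5 CPM against 24.8 and 30.7 CPM. *TT2* OE was the higher genotype in both sets for these genes. The early light-induced protein genes *ELIP1* and *ELIP2* were lower. *ELIP1* was at 21.7, 12.5 and 12.8 CPM against 3.21 and 1.9 CPM, and *ELIP2* at 13.1, 11.5 and 10.3 CPM against 3.83 and 3.47 CPM. The peroxidase gene *GPX7* was at 5.92, 4.33 and 5.32 CPM against 1.15 and 1.33 CPM. Round 1 held 1.66 CPM of *ELIP1* and 0.631 CPM of *ELIP2* in Col-0.

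PIF proteins are bHLH factors that act in darkness and shade and promote elongation. Of 11 genes of PIF and shade growth, 1 was higher and 3 were lower, with a median of -0.58. *PIF3* was the higher one, at 16.4, 19.7 and 17.2 CPM against 45.1 and 44.5 CPM. *PIF1* was at 58.6, 77.2 and 74.1 CPM against 27.9 and 29.6 CPM. The shade marker *PIL1* was at 2.88 to 3.1 CPM against 1.09 and 1.08 CPM, and the auxin-induced *IAA19* at 7.36 to 8.49 CPM against 1.8 and 3.17 CPM. *IAA29* was at 2.25 to 4.35 CPM against 1.33 and 1.16 CPM and missed the rule in the *TT2* OE pair.

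At most 1 gene in each list of light harvesting, chlorophyll and starch met the rule. Over all genes 1.58% were higher and 3.59% were lower, so such counts do not set these lists apart. None of 19 light-harvesting antenna genes met the rule in either direction, and their median was -0.15. The lowest was *LHCB2.4*, at 1613, 2000.2 and 1918 CPM against 1089 and 962 CPM. Of 15 chlorophyll synthesis genes, 1 was lower, namely *PORC*, a protochlorophyllide oxidoreductase, at 231, 253 and 210.1 CPM against 92.9 and 91.6 CPM. Of 17 tested starch breakdown genes, 1 was lower, the amylase gene *AMY3*, at 85.0, 81.3 and 77.5 CPM against 21.5 and 22.4 CPM. Of 10 starch synthesis genes, 1 was lower, *APL3*, at 11.6, 10.1 and 9.63 CPM against 3.27 and 2.33 CPM. Medians of these lists were -0.25, -0.18 and -0.29. Both pairs were below 0 for 13 of 19 antenna genes and 10 of 15 chlorophyll genes. The same held for 10 of 17 starch breakdown genes and 7 of 10 starch synthesis genes, against 7581 of all 20382 tested. Both were above 0 for 4, 2, 4 and 1 in that order, against 7958 of all.

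Cold-response genes split by role. The 3 CBF transcription factor genes were higher, while 5 genes of cold-induced proteins were lower, out of 13, and the list median was -0.50. *CBF2* had 21, 16 and 19 counts in P2, Q2 and R2 and 226 and 157 counts in S2 and U2, a fitted ratio of 3.28. *CBF1* and *CBF3* were chosen after their values had been seen. *CBF1* had 0 counts in each round 2 library and 7 and 5 counts in round 3, which is at least 1.71-fold higher against a floor of 3 counts per library, and *CBF3* had 15, 0 and 8 counts against 58 and 53. The CBFs activate COR genes, of which some were lower. *COR15A* was at 3.64, 2.43 and 1.69 CPM against 0.278 and 0.488 CPM. *RD29A* was at 99.2, 89.6 and 66.0 CPM against 21.5 and 20.5 CPM, and the dehydrin gene *ERD10* was at 112, 124 and 105 CPM against 52.4 and 48.4 CPM. *KIN1* stood at 1.01 to 2.26 CPM against 0.876 and 0.46 CPM. *KIN2*, *COR47* and *GOLS3* did not meet the rule, with fitted ratios of 0.00, -0.50 and -0.76.

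The phytohormone abscisic acid signals through PP2C phosphatases that act as its co-receptors and dampen it. Of 14 genes of the abscisic acid response, 2 were higher and none was lower, with a median of 0.87. Both are such phosphatases. *ABI1* was at 47.9, 35.0 and 35.9 CPM against 130.0 and 134 CPM, and *PP2CA* at 37.4, 28.7 and 28.9 CPM against 78.0 and 75.3 CPM. Another phosphatase gene, *HAB1*, had pair ratios of 1.09 and 0.96, the factor gene *ABF3* 0.84 and 1.17, and the responsive gene *RD20* 1.00 and 1.11, so each was near 2-fold and missed the rule. *RAB18* and *RD29B*, named after their values had been seen, had fitted ratios of 0.11 and 0.27.

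Heat shock genes had a median of 0.01 over 16 tested of 22, with 2 lower and none higher. The median was -0.34 without R2 or U2 and 0.17 without S2. *ROF2*, a heat-induced immunophilin gene, was at 21.4, 27.8 and 25.7 CPM against 2.93 and 3.93 CPM. *HSP17.6II*, the other lower member and named for that reason, had few counts. They were 21, 25 and 30 in P2, Q2 and R2 against 3 and 4 in S2 and U2. *HSFA2*, the heat shock factor gene whose promoter led the study to TT2 and MYB5, was at 3.26, 3.27 and 3.89 CPM in P2, Q2 and R2 and at 0.898 and 2.11 CPM in S2 and U2. The sets did not overlap, but the *TT2* OE pair ratio of -0.87 missed 2-fold. *HSP90.1* was at 31.7 to 40.2 CPM against 16.3 and 24.8 CPM. *MBF1C* and *HSP70B* had positive fitted ratios of 0.80 and 0.93 and did not meet the rule.

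Touch genes were lower. Of 17 tested genes of the early touch and wound response, 3 were lower and none was higher, with a median of -0.60, and these were the touch genes *TCH2*, *TCH3* and *XTH22*. *TCH2*, a calmodulin-like gene, was at 87.0, 132 and 98.4 CPM against 17.9 and 27.3 CPM, and *TCH3* at 75.8, 193 and 202 CPM against 20.4 and 21 CPM. P2 was the lowest library of round 2 for both. The wound and jasmonate members did not meet the rule. *VSP2*, a vegetative storage protein gene, was at 2.94 to 3.17 CPM against 1.47 and 1.68 CPM, and *ERF6* had pair ratios of -0.51 and -2.05. Of 10 tested genes of salicylate defence, 1 was lower, *PR5*, at 1.41 to 1.9 CPM against 0.0641 and 0.163 CPM. Its round 3 values rest on 3 counts in S2 and 6 counts in U2. Beside 3.59% lower over all genes, 1 such gene does not set this list apart.

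Early flavonoid genes were lower in round 3 in both genotypes with a partner. Flavonols and anthocyanins share the enzymes from chalcone synthase (TT4) onwards, and FLS1 draws the branch to flavonols. Of 13 tested genes, 8 were lower and 1 was higher, with a median of -1.24. *TT4* was at 74.8, 46.1 and 84.4 CPM in P2, Q2 and R2 and at 7.89 and 28.3 CPM in S2 and U2. *FLS1* was at 23.3, 11.1 and 11.6 CPM against 2.78 and 1.87 CPM, and *CHIL* at 48.1, 48.7 and 41.0 CPM against 8.1 and 9.97 CPM. The coenzyme A ligase gene *4CL3* was at 17.5, 14.9 and 14.2 CPM against 2.37 and 2.65 CPM, and the anthocyanin regulator *PAP1* at 1.41 to 1.48 CPM against 0.385 and 0.433 CPM. The 1 higher member was the glucosyltransferase gene *UGT78D2*, named for that reason, at 24.2 to 30.4 CPM against 85.7 and 99.9 CPM. *TT4* was higher in *TT2* OE than in Col-0 in both sets.

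Sulfur-related lists were on the lower side as well. Of 11 genes of sulfate uptake and sulfur deficiency, 4 were lower and none was higher, with a median of -0.82. *APR1*, which reduces activated sulfate, was at 37.6, 21 and 15.8 CPM against 5.79 and 7.58 CPM. *SULTR4.2*, *SHM7* and *GGCT2.1* were the other 3. Aliphatic glucosinolates are sulfur-rich defence compounds made from methionine. Of 19 tested genes of their synthesis, 5 were lower and none was higher, with a median of -1.38. *MYB29*, a regulator of the pathway, was at 2.14, 2.11 and 1.59 CPM against 0.449 and 0.217 CPM. For the chain elongation gene *IPMI1* Q2 stood apart at 7.27 CPM, with 1.08 CPM in P2 and 2.54 CPM in R2 against 0.107 and 0.623 CPM. Q2 was also the highest for *CYP79F2*, *BAT5* and *IPMI2*, and it enters the rule only through the non-overlap.

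At most 1 gene was counted in each of the nitrogen, iron and carbon lists. Beside 1.58% higher and 3.59% lower over all genes, this does not set them apart. Both pairs were below 0 for 11 of 18 nitrate, 7 of 16 iron and 4 of 20 carbon genes, against 7581 of all 20382. Both were above 0 for 2, 3 and 10 in that order, against 7958 of all. Of 18 tested genes of nitrate uptake and assimilation, 1 was lower, the regulator *LBD37*, at 169, 210.5 and 212 CPM against 72.9 and 72.4 CPM. *NIA1*, a nitrate reductase gene, had pair ratios of 1.28 in Col-0 and -0.16 in *TT2* OE. None of 20 carbon starvation genes met the rule, and their median was 0.38, or -0.01 without P2, 0.01 without S2 and 0.74 without R2 or U2. *BCAT2*, an enzyme of branched-chain amino acid breakdown, had 1.6 and 0.79, whereas the proline dehydrogenase gene *ERD5* had -0.68 and -1.62. Of 16 iron homeostasis genes, 1 was higher, *AT1G47400*, at 0.344 to 0.625 CPM against 0.834 and 1.11 CPM. The ferritin genes *FER1* and *FER3* had fitted ratios of -1.18 and -1.08 and did not meet the rule.

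Growth lists held at most 1 counted gene each, beside 1.58% higher and 3.59% lower over all genes. None of 16 cytosolic ribosomal protein genes, 16 ribosome biogenesis genes and 16 cell cycle genes met the rule, with medians of -0.28, -0.47 and -0.41. Both pairs were below 0 for 13, 13 and 10 of these genes, against 7581 of all 20382 tested. Both were above 0 for 1, 1 and 2, against 7958 of all. The cell cycle median was -0.83 without P2, -0.82 without S2 and -0.05 without R2 or U2. The replication genes *MCM5* and *MCM2* had pair ratios of -0.88 and -1.19, and of -0.72 and -1.07. *FIB2*, a fibrillarin of the nucleolus, was at 38, 35.5 and 40.9 CPM against 20.4 and 23.1 CPM. Of the 8 expansins listed, which do not include the *EXPA16* and *EXLA1* described above, *EXPA1* was higher, at 97.1, 117 and 106 CPM against 238 and 222 CPM, while *EXPA5* had a fitted ratio of -1.35 and missed the rule in the *TT2* OE pair.

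**Figure D4:**
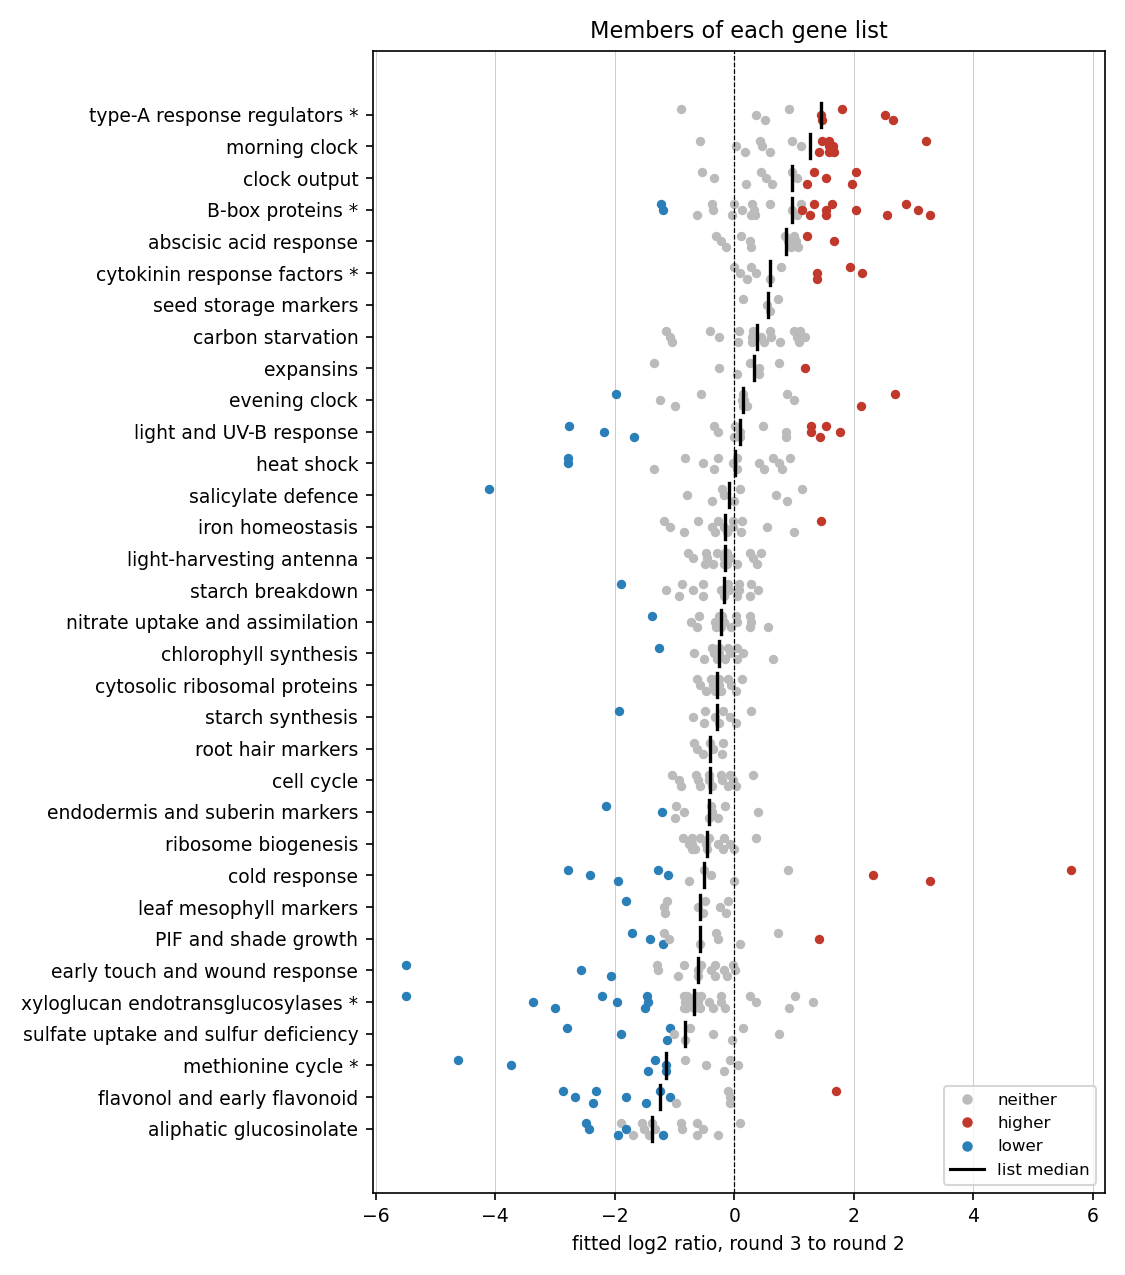
Fitted log2 ratio of round 3 to round 2 for each tested member of 33 gene lists, 1 point per gene, sorted by list median (black bar). Red points met the count rule as higher and blue points as lower, an asterisk marks the 5 families added after the values had been seen, and the fitted value of CBF1 (5.64, the rightmost point) rests on 0 counts in round 2 and is no measure of size. Morning clock genes lie mostly to the right, with a median of 1.26 that includes CCA1 and LHY, and aliphatic glucosinolate genes to the left, with -1.38.

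Whole seedlings mix shoot and root, and markers of their cell types differed between the sets too. The summed level of 10 leaf mesophyll markers was 48959 to 57102 CPM in round 2 and 33421 and 29754 CPM in round 3. All 10 had a negative fitted ratio, and 1, *RBCS2B* of the Rubisco small subunit, met the rule as lower, at -1.82. *RBCS1B*, *RBCS3B* and the carbonic anhydrase gene *CA1* had -1.17, -1.16 and -1.12 and missed it in the Col-0 pair. The sum of 7 root hair markers was 131 to 155 CPM against 102 and 77.2 CPM, with 0 of 7 meeting the rule, and that of 11 endodermis and suberin markers was 101 to 143 CPM against 98.6 and 72.2 CPM. In that list *FAR5* and *FAR1*, which make suberin alcohols, were lower, while the defining *CASP1* had a ratio of -0.15. Of 12 seed storage markers 4 were tested and none met the rule, with a sum of 3.14 to 4.74 CPM against 5 and 5.8 CPM. No marker list held a member at 0 in all 5 libraries. Fewer cells of a type and less RNA per cell cannot be told apart in such samples, and the part of these shifts in the results above was not tested.

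Promoters were compared next, a property that did not enter the choice of genes. The 250 bases before the annotated start of each gene (RefSeq, TAIR10.1) were searched on both strands for the evening element AAAATATCT, the CCA1-binding site AAAAATCT, the G-box CACGTG, the site II element TGGGCC or TGGGCT, the telo-box AAACCCTA and the I-box GATAAG. Promoters were found for 321 of the higher genes, 731 of the lower genes and 20303 of all genes tested. A G-box was present in 13.1% of higher (95% exact binomial interval 9.6% to 17.3%), 7.11% of lower (5.36% to 9.22%) and 7.43% of all promoters. The evening element was in 2.49% of higher, 4.92% of lower (3.47% to 6.75%) and 2.47% of all promoters. Site II elements were in 13.1% of higher and 12.7% of lower promoters (10.4% to 15.4%), against 21.9% of all. Telo-boxes were in 1.56% and 1.37%, against 3.39%. The CCA1-binding site (6.23%, 7.25% and 6.74%) and the I-box (11.8%, 14.5% and 12.4%) were in similar shares of the 3 sets. The intervals cover counting only, no test was run, and genes are not independent draws.

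**Figure D5:**
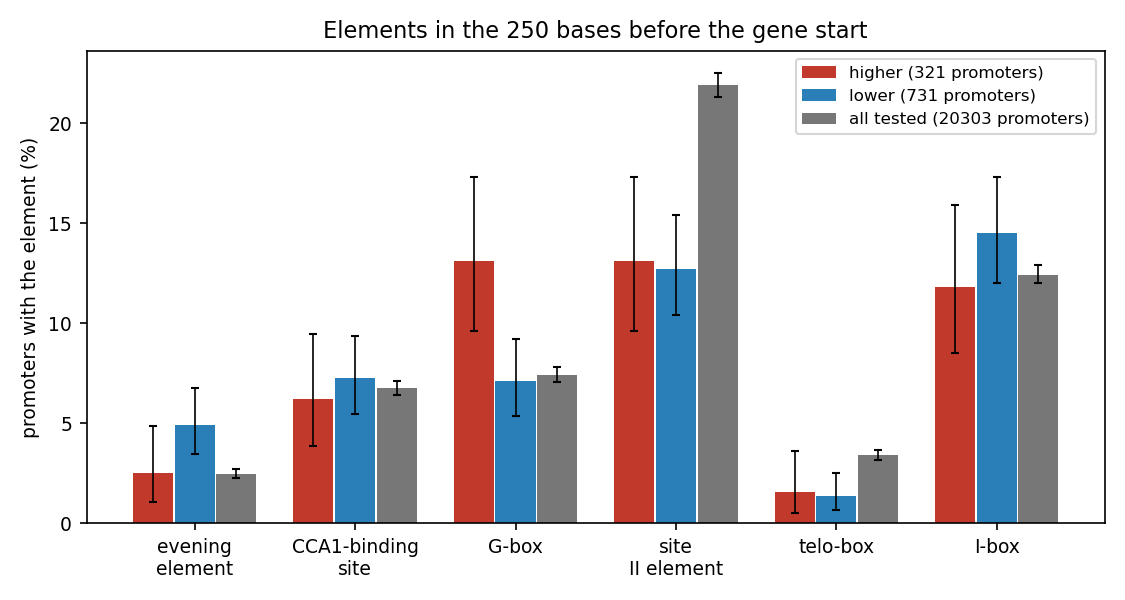
Bars give the percentage of promoters that hold each of 6 elements, among 321 higher genes, 731 lower genes and all 20303 tested genes with a promoter, with 95% exact binomial intervals. The G-box bar of the higher genes (13.1%) stands above that of all genes (7.43%), and both site II bars of the counted genes stand below 21.9%.

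G-boxes were held by 9 of the 16 morning clock promoters, *CCA1* and *LHY* among them, and by 2 of the 10 genes with the largest positive ratio, *BBX30* and *RVE2*. These 4 promoters are shown in full from 5′ to 3′ on the strand of the gene, TAIR10.1, because they carry the element whose share in higher promoters lay above that of all promoters. Capitals mark the G-box and, in *RVE2*, also the CCA1-binding site at its 5′ end and the I-box, read on the other strand, near its 3′ end.
CCA1 (chr2:19245341-19245590, forward strand): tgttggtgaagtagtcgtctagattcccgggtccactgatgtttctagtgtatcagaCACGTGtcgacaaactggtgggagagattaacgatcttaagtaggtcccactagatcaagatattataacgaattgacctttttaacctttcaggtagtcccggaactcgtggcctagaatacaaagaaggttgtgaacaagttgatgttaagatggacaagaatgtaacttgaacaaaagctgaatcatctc
LHY (chr1:37872-38121, reverse strand): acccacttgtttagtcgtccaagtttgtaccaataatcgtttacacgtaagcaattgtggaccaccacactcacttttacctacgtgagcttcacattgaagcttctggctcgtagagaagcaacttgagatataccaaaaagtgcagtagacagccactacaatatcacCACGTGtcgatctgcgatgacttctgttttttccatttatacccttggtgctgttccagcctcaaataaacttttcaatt
RVE2 (chr5:14753089-14753338, reverse strand): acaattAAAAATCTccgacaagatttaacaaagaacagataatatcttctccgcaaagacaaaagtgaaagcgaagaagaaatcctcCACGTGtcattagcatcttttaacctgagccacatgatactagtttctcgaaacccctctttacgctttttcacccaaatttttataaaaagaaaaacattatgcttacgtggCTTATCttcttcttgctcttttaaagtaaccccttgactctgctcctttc
BBX30 (chr4:8708591-8708840, forward strand): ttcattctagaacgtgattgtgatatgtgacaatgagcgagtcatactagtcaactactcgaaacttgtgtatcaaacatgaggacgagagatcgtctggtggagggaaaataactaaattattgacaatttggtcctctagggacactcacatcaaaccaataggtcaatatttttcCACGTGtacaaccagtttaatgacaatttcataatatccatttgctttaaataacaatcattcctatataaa

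None of the 10 genes with the largest negative ratio held a G-box. After the values had been seen, the hexamer CGCGTT was added. It was present on either strand in 3 of these 10 promoters, *PHI-1*, *ACS8* and *EXLA1*, and in 5.06% of all lower promoters (3.59% to 6.91%), against 2.49% of higher and 2.76% of all promoters. The lower promoters include these 3, so their share is no separate support for the hexamer. Its capitals read AACGCG here, since it lies on the opposite strand in all 3, and *ACS8* also shows a site II element in capitals near its 3′ end.
PHI-1 (chr1:12851733-12851982, forward strand): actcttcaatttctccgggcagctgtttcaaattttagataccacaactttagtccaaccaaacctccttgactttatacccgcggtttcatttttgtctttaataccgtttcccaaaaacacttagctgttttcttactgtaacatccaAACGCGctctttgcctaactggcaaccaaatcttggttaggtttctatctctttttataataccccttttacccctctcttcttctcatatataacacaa
ACS8 (chr4:17751829-17752078, forward strand): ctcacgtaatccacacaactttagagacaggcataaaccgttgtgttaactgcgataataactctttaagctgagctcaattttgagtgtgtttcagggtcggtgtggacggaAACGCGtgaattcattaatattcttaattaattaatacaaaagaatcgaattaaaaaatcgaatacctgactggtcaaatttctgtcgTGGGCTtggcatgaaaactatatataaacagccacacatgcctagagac
EXLA1 (chr3:16895916-16896165, forward strand): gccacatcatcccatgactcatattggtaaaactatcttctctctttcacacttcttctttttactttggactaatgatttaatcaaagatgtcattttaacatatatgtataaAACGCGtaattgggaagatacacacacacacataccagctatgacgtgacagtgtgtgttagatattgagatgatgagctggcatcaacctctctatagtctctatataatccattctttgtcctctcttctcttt

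The counted genes were spread over the 5 chromosomes. The median gene length was 2082 bases for higher and 2061 bases for lower genes, against 2391 bases for all tested. By chromosome, higher genes made up 1.35% to 1.83% and lower genes 3.29% to 4.21% of the genes tested. Lower genes had a median level of 17 CPM in round 2 and 5.6 CPM in round 3, and higher genes 4.19 CPM and 13.2 CPM, against 13.4 and 13.6 CPM over all genes. The 28 lists written out for this comparison hold 29 of the higher and 42 of the lower genes, so 294 and 689 belong to none of them.

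The last comparison asked whether *TT2* OE related to Col-0 in round 3 as it did before. It did not enter the choice of rounds and was tested with edgeR's quasi-likelihood test over all 8 libraries, with genotype, round and a term for *TT2* OE in round 3, which leaves 2 residual degrees of freedom. Round 3 holds 1 Col-0 and 1 *TT2* OE library and is fitted exactly. The spread in this test thus comes from rounds 1 and 2 alone, and S2 and U2 are assumed to vary alike. At an adjusted p under 0.05 (Benjamini-Hochberg over 20382 genes), 1 gene (0.00491%) was called, *NEET*, which encodes an iron-sulfur protein. *NEET* was at 59.6, 47.5 and 13 CPM in the Col-0 libraries M2, P2 and S2 and at 39.7, 42.1 and 36.6 CPM in the *TT2* OE libraries O2, R2 and U2. The low value of S2 sets it apart, while the 3 *TT2* OE libraries lie close together. The log2 ratio of *TT2* OE to Col-0 in round 3 exceeded that of rounds 1 and 2 by 1.88 (edgeR adjusted p = 0.0219). At an unadjusted p under 0.05 the ratio was higher in round 3 for 1126 genes and lower for 812.

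The number of calls was unstable. It was 305 with the 6 Col-0 and *TT2* OE libraries alone, 19 with DESeq2 and 113 with edgeR's likelihood ratio test. It was 15 without M2, 181 without N2, 13 without O2, 2 without P2, 306 without Q2 and 50 without R2, and *NEET* was called in each of these fits, with adjusted p from edgeR and DESeq2 between 8.58e-12 and 0.0219. Of the next genes by p, *PIA1* had no count in P2, Q2, R2 and S2 and 94 counts in U2, with 3.85 CPM in N2 of *MYB5* OE (edgeR adjusted p = 0.106). The proline-rich cell wall genes *AT3G54580* and *HRGP1*, neighbours on chromosome 3 that may share reads, were lower in U2 than in S2, at 143 against 284 CPM and 64.3 against 111 CPM, whereas R2 was above P2 for both (edgeR adjusted p = 0.106 and 0.186).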

How the data were processed

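RNA from whole seedlings was sequenced by the study with a NEBNext Ultra Directional kit on a NextSeq 500. The authors mapped paired reads to TAIR10 and obtained counts of reads per gene with CLC Genomics Workbench 10. These deposited counts are whole numbers for 28496 genes, and 98.3% of the gene IDs were found in RefSeq. The table has no organelle genes. A total of 28 columns were not used, 24 of normalized values and 4 of a library not analysed here. Whether counting used strand is not given in the sources used here, so reads of overlapping or antisense genes cannot be told apart.

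Counts were scaled by TMM and fitted with edgeR 4.0.16 in R 4.3.3, with terms for genotype and round. The study describes the libraries of a genotype as independent biological replicates. The p-values come from fits with genotype and round as terms, so they do not measure the full spread between libraries of a genotype. They measure the spread left after these terms, which in the interaction test comes from the earlier rounds alone. Scripts were tested on simulated data. There the count rule was met by 17.0% of genes changed 2-fold, 100.0% of genes changed 4-fold and 22 of 20182 unchanged genes. The interaction test called 38.0% of genes changed 2-fold, 92.0% of genes changed 4-fold and 6 of 20182 unchanged genes. A gene that missed the rule may thus still differ by about 2-fold. Alternatives were relative log expression factors, other filters, folds and prior counts, all 8 libraries, DESeq2 1.42.0 and leaving out each library. Promoters were read from TAIR10.1 with Python 3.11.15 and scipy 1.17.1, and figures were drawn with matplotlib 3.10.9. No molecular identifiers are described, so intervals and floors reflect counting error alone.

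The libraries compared, the gene lists and the tests were chosen with earlier results of these data known. Named genes are *CCA1* and *LHY*, the 10 largest ratios in each direction among genes that met the count rule and averaged 5 CPM or more, up to 5 members per list that averaged 1 CPM or more, and up to 5 genes per direction of the interaction test. Other genes are named as chosen after their values had been seen. These include *PRR7*, *TOC1*, *GRP7*, *KIN2*, *COR47*, *GOLS3*, *RBCS1B*, *RBCS3B*, *CA1*, *ELF4*, *CO*, *HSP17.6II*, *CASP1*, *BBX14*, *BBX15*, *BBX22*, *BBX24*, *XTH15*, *HOG1*, *GGCT2.1* and *AT1G47400*.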

Additional observations from a re-analysis of the deposited data

Results flagged for a closer look

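The ratio of *TT2* OE to Col-0 for *NEET* differed between round 3 and rounds 1 and 2 by 1.88 on the log2 scale in a test of the difference itself (edgeR quasi-likelihood, adjusted p = 0.0219). *NEET* was at 13 CPM in S2 and at 36.6 CPM or more in the other 7 libraries, so the difference lies with 1 Col-0 library, and its cause was not tested. Round 3 set 1 library against 1, and the spread came from rounds 1 and 2 alone, so the call has no replicate within round 3. Groups of at most 3 libraries were too small for a check on single outlying libraries.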

How the results depend on the processing

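The counts of 323 higher and 731 lower genes stayed within 1.5 times under relative log expression factors (306 and 757), no filter (334 and 803), a mean of at least 1 CPM (244 and 628) and a prior count of 0.5 (340 and 763). A 1.5-fold limit gave 1239 and 1793, and a 4-fold limit 31 and 114. Leaving out 1 library gave 325 to 905 higher and 738 to 1365 lower genes. The interaction test called 1 gene, and also 1 with relative log expression factors. It called 305 with the 6 Col-0 and *TT2* OE libraries, 19 with DESeq2, 113 with the likelihood ratio test, 13 with no filter, and 2 to 306 with 1 library left out. The cause was not tested. No ratio of a named gene that met the rule changed sign under any alternative run. The rule asks for both pairs on the same side, so leaving out a library could hardly change a sign. With all 8 libraries, the ratio of *IPMI2* moved to -2.00 and the median of aliphatic glucosinolate genes to -1.70. Leaving out 1 library moved 12 (P2), 14 (S2), 12 (R2) and 12 (U2) of 206 ratios and medians by more than the spread between the pairs, and 0 without Q2. These counts say little about robustness. Without 1 library of a pair, a gene's ratio is that of the other pair. Its shift then stays under the spread by construction, except at low counts. Q2 has a genotype term of its own, so leaving it out could hardly move a ratio. Among single genes, *MYB29* went from -2.48 to -2.87 without P2 and -2.86 without S2, while *PR5* went from -4.10 to -4.82, *IPMI1* from -2.43 to -3.30 and *IPMI2* from -1.55 to -2.00 without R2 or U2. List medians made up the rest, and those of carbon starvation and heat shock genes changed sign. The median over all genes was between -0.00 and 0.03 under the alternatives for fitted ratios. Leaving out organelle genes was not run, because the table holds 0 of them. No paired analysis was possible because the labels give no replicate numbers and libraries were numbered in accession order. The fits already hold genotype and round as terms. The 5 families and the hexamer CGCGTT were added after the data had been seen.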
